A study of Mus musculus with 2 samples.

Results

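Metalloproteinases and their tissue inhibitors were followed in isolated mouse glomeruli, the filtering tufts of the kidney. Members were all probe sets with exactly 1 gene symbol that starts with Mmp, Timp or Adam followed by a digit, or with Adamts. These were 124 of 45101 probe sets on the array, and they stand for 70 of 18193 named genes, namely 18 Mmp, 4 Timp, 28 Adam and 20 Adamts genes, the last of which include 5 Adamtsl genes. Of the 70 genes, 44 were measured, meaning that their signal reached the floor of 52.7 on at least 1 array, and 26 stayed below it on both.

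All RNA came from male C57BL/6J mice, 2 months old, homozygous for 2 floxed genes, GC-A fl/fl (the natriuretic peptide receptor encoded by Npr1) and p38 fl/fl (a stress kinase). The double knockout array held glomeruli of such mice with Nephrin-Cre (Cre/+), where the nephrin promoter drives Cre in podocytes, and the control array those of such mice with Nephrin-Cre (+/+), read here as floxed without Cre. Both genotypes ate a 6% NaCl diet and were infused with aldosterone by minipump (0.2 µg per kg body weight per minute) for 3 weeks, so neither array shows unloaded mice, a single deletion or Cre without floxed alleles. Each group had 1 array, and the labels do not state how many mice were pooled on it. No difference below therefore has a replicate error or a test: "higher" and "lower" compare the double knockout array with the control array.

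MMPs are zinc enzymes that are made as inactive proenzymes and cut collagens and other matrix proteins once their prodomain is removed. ADAMs are mostly membrane-bound and release the outer parts of cell surface proteins, and ADAMTS enzymes are secreted and cut proteoglycans, procollagens and related matrix proteins. TIMPs bind the active site of these enzymes. On the surface of a cell, MMP14 activates the MMP2 proenzyme with TIMP2 as the bridge between them. In the glomerulus these enzymes are known for the turnover of the basement membrane and the mesangial matrix.

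The samples were checked as glomeruli first. All 19 podocyte markers with a probe set were above the floor on both arrays, with summed signals of 126426 in the double knockout against 105728 in the control. Npr1 read 102 on the double knockout array and 167 on the control array, and Mapk14, taken as the p38 gene, 2607 and 2628. Whether these probes lie inside the deleted exons is not known here, so the values do not check the deletion. Proximal tubule markers were lower in the double knockout for 21 of 21 measured genes (summed signals 190891 and 303718), and loop, distal and collecting duct markers for 19 of 20 (64272 and 85905). The 63 measured markers of podocytes, endothelium, mesangium and parietal epithelium had a median log2 difference of 0.58, which is 1.5-fold. For the member genes past 2-fold and many other members, the value after subtracting that 0.58 (the recentred value) is therefore given too. Single genes of the related lists are given without it. The part of the tubule content in the member differences was not tested. In such bulk RNA, fewer cells of a type and less RNA per cell cannot be told apart.

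Members lay mostly on the higher side. Of the 44 measured genes, 37 had a log2 difference above 0 and 7 below 0, with a median of 0.47. Over all 13290 measured genes, 7454 were above 0 and 5835 below 0, with a median of 0.07. At least 2-fold higher were 11 of the 44 (25%), against 3.53% of all measured genes: Mmp2, Mmp10, Mmp12, Mmp14, Mmp17, Timp1, Timp2, Adam12, Adamts8, Adamts16 and Adamtsl4. Only Mmp9 was at least 2-fold lower (2.27% of the members, against 2.87% of all measured genes). Of these genes, Mmp10, Mmp12 and Adamts8 reached the floor in the double knockout alone, and Mmp9 in the control alone. Among genes above the floor on both arrays, 8 of 37 members (21.6%) were at least 2-fold higher, against 3.34% of all 12284 such genes. Among the same genes 0 of 37 members were at least 2-fold lower, against 361 of all 12284. After recentring 20 of the 44 were above 0 (45.5%, against 13.7% of all measured genes). The median of the members was then -0.11, against -0.52 over all measured genes. With this shift 1 gene (Mmp2) was at least 2-fold higher (2.27% of the members, against 0.549% of all measured genes). The shift left 4 of the 44 at least 2-fold lower, against 2170 of all 13290 measured genes. Over single probe sets, 74 of the 124 were measured, and 19 of these were at least 2-fold higher and 1 lower, against 3.08% and 2.30% of all 28520 measured probe sets.

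**Figure D1:**
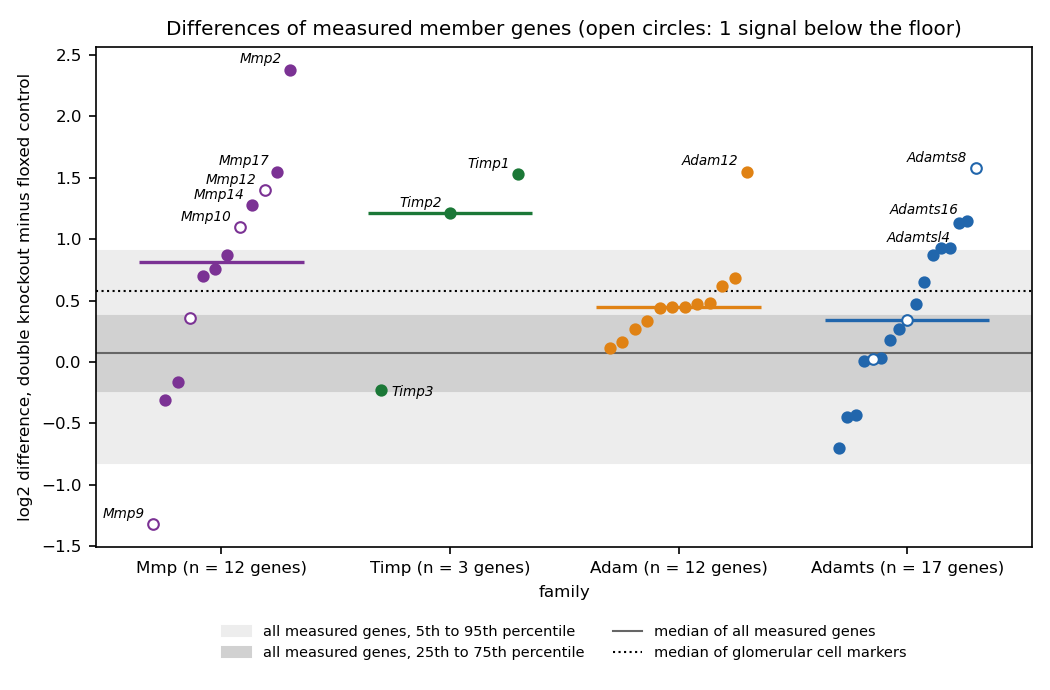
Log2 difference (double knockout minus floxed control) of each measured member gene by family, 1 point per gene, with open circles where 1 of the 2 signals was below the floor, coloured bars at the family medians, grey bands for all measured genes and a dotted line at the median of the glomerular cell markers. Mmp2 is the highest point at 2.38, Mmp9 the lowest at -1.32, and Timp3 sits apart from Timp1 and Timp2.

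The gelatinases, which cut denatured collagen and type IV collagen, lay at opposite ends. Mmp2 had signals of 1398 in the double knockout against 268 in the control, and its second probe set 1061 and 326. Both probe sets were thus higher in the double knockout, 5.21-fold and 3.26-fold, with log2 differences of 2.38 and 1.70 (1.80 and 1.12 recentred). Its brighter probe set ranked 13 from the top among the measured genes. Mmp9, a gelatinase stored in neutrophil granules, had signals of 50.2 in the double knockout against 131 in the control. The first is below the floor, so Mmp9 was at least 2.49-fold lower (log2 -1.32, recentred -1.90). A second Mmp9 probe set was below the floor on both arrays, so this difference rests on 1 probe set. Neutrophil markers were also lower: all 7 measured were below 0 (median -0.27, 0 of 7 past 2-fold), their summed signals were 1288 and 1857, and 6 of the 10 with a probe set were below the floor in the double knockout, as were 3 in the control. Their part in the Mmp9 value was not tested.

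Membrane-type MMPs, which sit on the cell surface, differed among themselves. Mmp14, which activates the MMP2 proenzyme, had signals of 1685 and 693, 533 and 245, and 494 and 184 in its 3 probe sets (double knockout first). All 3 were higher in the double knockout, from 2.17-fold to 2.68-fold, with log2 differences of 1.12 to 1.42. The brightest read 1.28 (0.70 recentred). Mmp17, an MMP held on the membrane by a lipid anchor, had 458 in the double knockout against 156 in the control and was 2.93-fold higher (log2 1.55, recentred 0.97), from 1 probe set. The other two did not share this. Mmp16 had 58.2 in the double knockout against 72.3 in the control (log2 -0.31, recentred -0.90), both near the floor. Mmp24, an enzyme known from the nervous system, had 90.3 and 101 in one probe set (log2 -0.16, recentred -0.75) and 80.0 and 31.4 in another (at least 1.52-fold higher), so its direction depended on the probe set.

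Outside the gelatinases and membrane-type MMPs, Mmp11 (stromelysin-3) had signals of 152 in the double knockout against 89.9 in the control (log2 0.76, recentred 0.17). Mmp23, an MMP without the haemopexin domain of most others, had 2255 and 1233 in one probe set and 1975 and 1162 in the other. Both probe sets were higher in the double knockout, 1.83-fold and 1.70-fold (recentred 0.29 and 0.18). The remaining measured MMPs belong to the gene cluster on chromosome 9 described next.

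In the RefSeq gene table of GRCm38.p6, 10 Mmp genes follow each other on chromosome 9 with no other protein-coding gene between them: Mmp13, Mmp12, Mmp1b, Mmp3, Mmp1a, Mmp10, Mmp8, Mmp27, Mmp20 and Mmp7. Of these, 9 had a member probe set and 4 were measured, of which only Mmp7 was above the floor on both arrays. Of the 9 Mmp genes elsewhere in the genome 8 were measured, and 7 of them on both arrays. Mmp7 (matrilysin, an enzyme of epithelia) had 154 in the double knockout against 94.6 in the control, 1.63-fold higher (log2 0.70, recentred 0.12). Mmp12 (macrophage elastase) had 138 and 37.1, at least 2.63-fold higher (recentred 0.81). Mmp10 (stromelysin-2) had 113 and 37.7, at least 2.15-fold higher (recentred 0.52). Thus both Mmp10 and Mmp12 passed the floor in the double knockout alone, and both from 1 probe set. Mmp8, the collagenase of neutrophils, had 67.6 and 52.1, at least 1.28-fold higher (log2 0.36, recentred -0.22) and close to the floor on both sides. The collagenase genes Mmp1a, Mmp1b and Mmp13, the stromelysin gene Mmp3 and the enamel protease gene Mmp20 were below the floor on both arrays, as was Mmp19 outside the cluster. Macrophage markers were above 0 for 19 of 19 measured genes (median 0.90, recentred 0.31), with summed signals of 17083 in the double knockout against 9295 in the control, and their part in the Mmp12 value was not tested. Of that list only Cd163 was below the floor on both arrays.

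**Figure D2:**
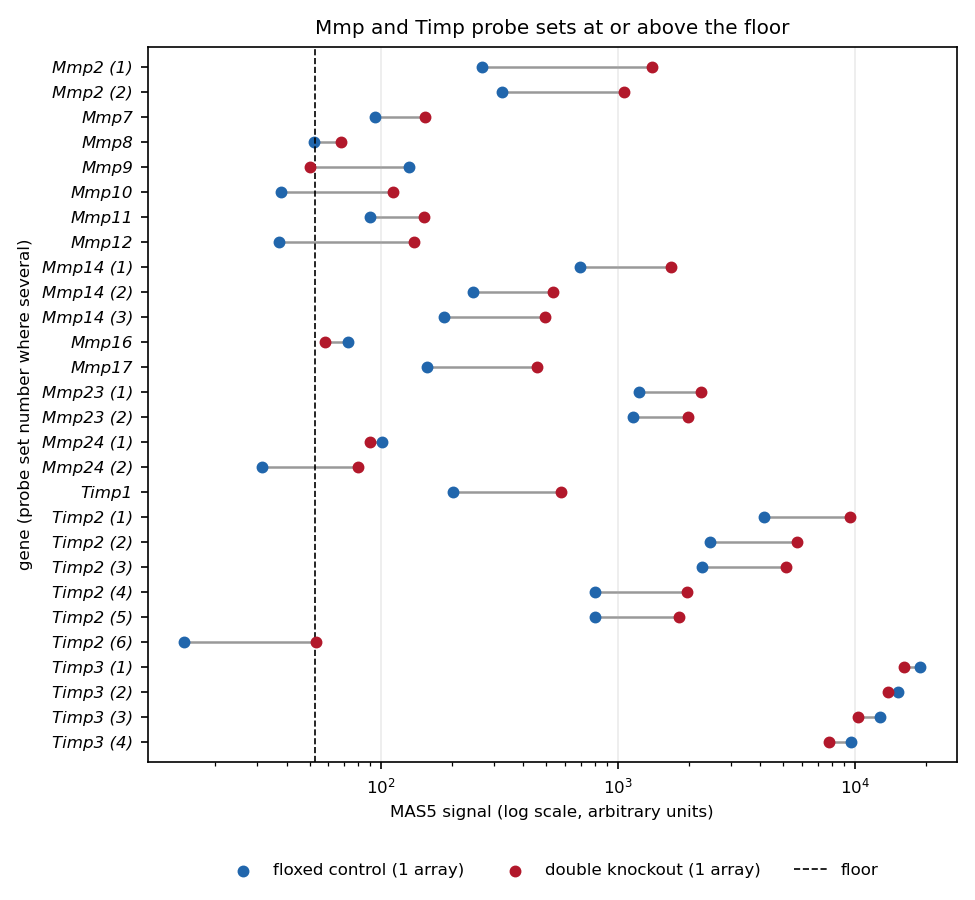
MAS5 signal (x axis, log scale) of each Mmp and Timp probe set that reached the floor (dashed line, 52.7) on at least 1 array, with the control array in blue and the double knockout array in red, joined by a grey line. Red lies to the right of blue in both Mmp2, all 3 Mmp14 and all 6 Timp2 probe sets, and to the left in Mmp9 and in all 4 Timp3 probe sets, the brightest of which turns above 0 after quantile or loess scaling.

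Promoter sequences are shown for 6 genes, to set Mmp genes of the cluster beside an Mmp gene elsewhere and the inhibitors. Each window runs from 250 bases before to 50 bases after an annotated start in RefSeq (GRCm38.p6), and 41 of the 70 member genes had 46 such windows. The windows are those of Mmp10 at chr9:7502092-7502391 (plus strand), the second of the Mmp12 windows at chr9:7347124-7347423 (plus strand), Mmp14 at chr14:54431348-54431647 (plus strand), Timp1 at chrX:20869916-20870215 (plus strand), Timp2 at chr11:118355362-118355661 (minus strand) and Timp3 at chr10:86300162-86300461 (plus strand). They are printed 5′ to 3′ on the strand of the gene, and capitals mark 3 of the motifs searched on both strands. The AP-1 motif is spelled TGACTCA and binds factors of the Fos and Jun families. The TATA box, known for placing the start of transcription, is spelled TATAAA in this search and counted wherever it lies in the window. The GC box, a motif of promoters rich in these letters, is spelled GGGCGG here. The last 2, and the grouping by position, were added after the signals had been seen.
Mmp10: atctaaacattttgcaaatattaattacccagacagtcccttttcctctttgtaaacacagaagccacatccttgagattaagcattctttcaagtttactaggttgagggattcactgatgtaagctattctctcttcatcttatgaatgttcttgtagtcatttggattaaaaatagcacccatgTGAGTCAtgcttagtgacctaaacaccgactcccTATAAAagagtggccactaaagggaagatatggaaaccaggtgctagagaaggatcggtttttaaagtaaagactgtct
Mmp12: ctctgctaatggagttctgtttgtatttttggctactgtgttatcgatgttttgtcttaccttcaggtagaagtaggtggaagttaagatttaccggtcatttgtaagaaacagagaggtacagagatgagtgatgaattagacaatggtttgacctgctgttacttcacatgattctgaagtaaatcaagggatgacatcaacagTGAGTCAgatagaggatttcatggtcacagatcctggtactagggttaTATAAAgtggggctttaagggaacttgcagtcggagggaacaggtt
Mmp14: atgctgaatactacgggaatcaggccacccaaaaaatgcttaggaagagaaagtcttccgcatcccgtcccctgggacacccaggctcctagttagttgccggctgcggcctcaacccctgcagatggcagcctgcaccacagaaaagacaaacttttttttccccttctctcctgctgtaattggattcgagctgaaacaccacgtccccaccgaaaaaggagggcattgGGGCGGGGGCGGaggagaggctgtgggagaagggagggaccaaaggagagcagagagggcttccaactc
Timp1: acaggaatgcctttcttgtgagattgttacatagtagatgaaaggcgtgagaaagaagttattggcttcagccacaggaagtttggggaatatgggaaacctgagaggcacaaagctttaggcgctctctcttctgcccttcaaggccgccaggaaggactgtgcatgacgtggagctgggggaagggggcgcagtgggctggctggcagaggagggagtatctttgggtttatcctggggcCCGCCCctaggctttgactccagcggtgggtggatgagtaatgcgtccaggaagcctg
Timp2: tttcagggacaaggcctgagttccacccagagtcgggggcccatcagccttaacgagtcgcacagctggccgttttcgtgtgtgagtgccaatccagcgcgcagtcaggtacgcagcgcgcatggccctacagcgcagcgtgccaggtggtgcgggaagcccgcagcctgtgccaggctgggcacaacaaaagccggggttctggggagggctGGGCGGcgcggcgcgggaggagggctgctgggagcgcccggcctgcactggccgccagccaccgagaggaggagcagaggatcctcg
Timp3: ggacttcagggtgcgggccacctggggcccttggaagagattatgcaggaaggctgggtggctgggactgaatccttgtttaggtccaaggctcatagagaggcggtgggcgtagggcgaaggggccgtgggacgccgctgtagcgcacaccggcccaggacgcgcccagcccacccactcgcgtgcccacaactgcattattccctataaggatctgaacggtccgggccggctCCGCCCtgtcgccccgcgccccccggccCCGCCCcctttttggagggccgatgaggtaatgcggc
In these windows the 3 capitalised motifs do not overlap each other. The first 2 hold an AP-1 and a TATA motif and no GC box, and the others hold a GC box and neither of the first 2 motifs. The AP-1 motif begins at -63 in Mmp10 and at -44 in the Mmp12 window, counted from the start site as 0. The TATA motif begins at -29 in Mmp10 and at 4 in that Mmp12 window, where it lies past the annotated start. The first Mmp12 window, at chr9:7344147-7344446, holds none of the 3 motifs.

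Over all 32851 windows of this length in the table, 5.20% held the AP-1 motif, 13.6% the TATA motif and 35.7% the GC box. Of the 11 windows of cluster genes, 7 held AP-1 (63.6%), 9 TATA (81.8%) and 0 a GC box. The windows of Mmp1a, Mmp1b, Mmp3 and Mmp13, genes below the floor on both arrays, also held both AP-1 and TATA. The 5 windows of other Mmp genes come from 4 of the 9 such genes (Mmp11, Mmp14, Mmp23 and Mmp24), so most of that group, Mmp2, Mmp9, Mmp16, Mmp17 and Mmp19, was not analysed here. Of these 5 windows, 0 held AP-1, 0 TATA and 4 a GC box (80.0%). The 4 Timp windows held no AP-1 and no TATA motif, and 3 held a GC box, that of Timp4 being the exception. Both other motifs looked at after the signals were seen, AGGAAG (the core of Ets sites) and CCAAT, were in 35.4% and 37.4% of all windows. AGGAAG was in 8 of 11 cluster windows (72.7%), 1 of 5 other Mmp windows and 3 of 4 Timp windows (not that of Timp2), and CCAAT in 3, 1 and 2 of them. The Timp windows with CCAAT were those of Timp1 and Timp2, not Timp3 or Timp4. Over all 46 member windows, AP-1 was in 19.6%, TATA in 28.3%, the GC box in 45.7%, AGGAAG in 39.1% and CCAAT in 32.6%. These counts describe letters and do not show that a factor binds there, and the cluster genes are related copies, not independent cases.

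The inhibitors did not move as one. Timp1, an inducible secreted inhibitor, had signals of 578 in the double knockout against 201 in the control and was 2.88-fold higher (log2 1.53, recentred 0.94), from 1 probe set. Timp2, the inhibitor that also bridges MMP14 and the MMP2 proenzyme, had 9583 and 4136 in its brightest probe set (double knockout first). Its next 4 read 5733 and 2445, 5140.1 and 2268, 1956 and 804, and 1807 and 805. All 5 were higher in the double knockout by nearly the same factor, 2.24-fold to 2.43-fold, with log2 differences of 1.17 to 1.28 (0.58 to 0.70 recentred). The sixth Timp2 probe set reached the floor only in the double knockout, at 53.3, and says nothing more. The 5 values span less than 0.21 on the log2 scale, the robust SD between probe sets of 1 gene over 5418 genes.

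Timp3, which binds to the matrix and is the main TIMP to inhibit ADAM17 and the aggrecan-cleaving ADAMTS enzymes, had signals of 16091 in the double knockout against 18927 in the control. Its other 3 probe sets read 13893 and 15320.0, 10335 and 12811, and 7818 and 9632. All 4 were slightly lower in the double knockout, by 0.14 to 0.31 on the log2 scale. Recentred, they read -0.82, -0.73, -0.89 and -0.89 in the same order. The brightest read 0.04 after quantile normalization and 0.07 after removal of a loess trend. The value of Timp3 thus depended on the scaling, and no direction is given to it. Timp4 was below the floor on both arrays.

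The unequal differences can be put as a difference of log2 differences, which no rescaling of a whole array changes and which trends with signal can change. The 12 pairs compared were chosen after the values had been seen. Timp1 stood 1.76 and Timp2 1.45 above Timp3, and these were at least 1.33 and 1.29 under the scalings tried. Mmp2 stood 1.17 above Timp2 (0.91 at the lowest scaling) and 1.10 above Mmp14 (1.06 at the lowest scaling), but with the probe set of median difference, for Mmp2 the lower of its 2, only 0.52 and 0.42 above them. Mmp14 and Timp2 were close to each other: Mmp14 stood 0.07 above Timp2 as deposited and 0.17 below it (-0.17) after quantile normalization. Adamts5 stood 1.16, Adamts4 1.10 and Adam17 0.67 above Timp3, with lowest values of 0.88, 0.69 and 0.29. These are values of 2 arrays, with no error, and they concern transcripts and not enzyme activity.

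ADAM genes lay close together with 1 exception. All 12 measured Adam genes were above 0, with a median of 0.45, while after recentring 3 of 12 were above 0 and the median was -0.14. As deposited, 1 of 12 (8.33%) was at least 2-fold higher, against the 3.53% over all measured genes. That gene was Adam12 (meltrin alpha, a sheddase known from muscle and from matrix-forming cells), with signals of 512 in the double knockout against 175 in the control (2.92-fold, log2 1.55, recentred 0.96). A second Adam12 probe set had 104 and 52.3, at least 1.97-fold higher, so both of its probe sets pointed the same way.

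Adam10 and Adam17 encode the main sheddases of the cell surface, which release Notch, growth factor ligands and cytokines. Adam10 had 3858 in the double knockout against 2761 in the control, 1008 and 834, and 285 and 297 in its 3 measured probe sets. The first 2 were higher and the third slightly lower, with log2 differences of 0.48, 0.27 and -0.06. Adam17 had 1259.7 and 931, 759.9 and 669.7, and 356 and 214, all higher, with log2 differences of 0.44, 0.18 and 0.73. Recentred, the brightest probe sets read -0.10 for Adam10 and -0.15 for Adam17.

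Adam19 (meltrin beta) had 189 in the double knockout against 118 in the control (1.6-fold, recentred 0.10), and Adam8, an ADAM of leukocytes, 94.4 and 61.3 (1.54-fold, recentred 0.04). Adam9, a widely expressed sheddase, had 4867 and 4499.8 and stood lowest of the family at 0.11 (recentred -0.47). In Adam15, an ADAM with an integrin-binding motif, the 4 probe sets gave log2 differences of 0.16 to 0.45 (-0.43 to -0.14 recentred). Thus these genes stayed under 2-fold in each probe set. Adam11, Adam22 and Adam23, which lack a working active site and are known from neurons, read 0.33, 0.27 and 0.45, and Adam33 read 0.45. Of the 16 Adam genes known mainly from the testis and epididymis only Adam4 was measured, with 149 in the double knockout against 108 in the control (log2 0.47). The other 15 and Adam28 were below the floor on both arrays.

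**Figure D3:**
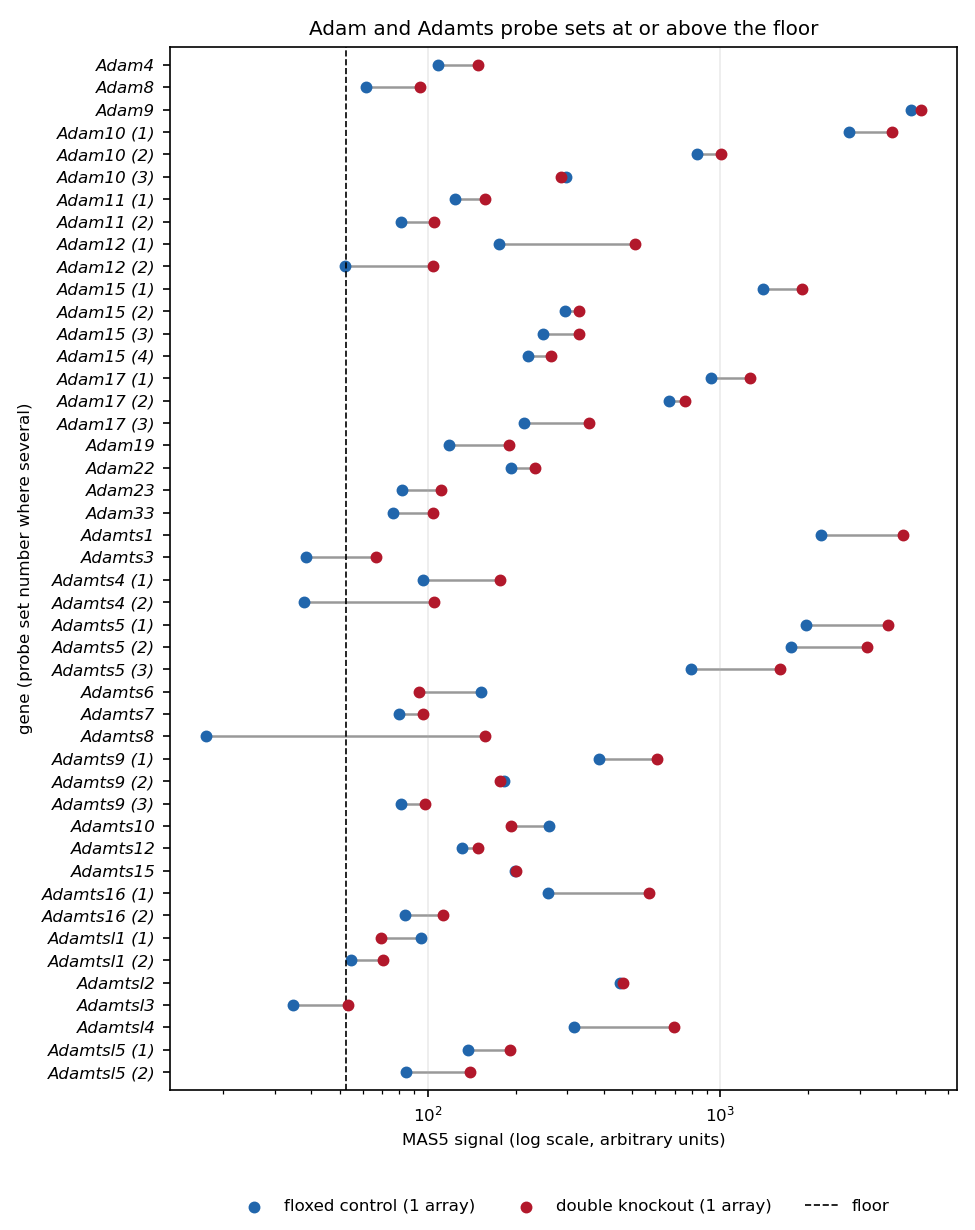
MAS5 signal (x axis, log scale) of each Adam and Adamts probe set that reached the floor (dashed line) on at least 1 array, with the control array in blue and the double knockout array in red. The largest gaps above the floor are those of Adam12 (512 against 175), Adamts16 (569 against 257) and Adamtsl4 (694 against 317), while Adamts8 was below the floor in the control.

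Of the 20 Adamts genes 17 were measured, with a median of 0.34 (-0.24 recentred). At least 2-fold higher were 3 of 17 (17.6%), against 3.53% of all measured genes. Among ADAMTS enzymes that cut proteoglycans such as aggrecan and versican, a class drawn up after the values were seen, all 6 measured genes were above 0, with a median of 0.90 (0.32 recentred), and 1 of 6, Adamts8, was past 2-fold. The other two Adamts genes past 2-fold lie outside that class. Adamts1, an enzyme that cuts versican and aggrecan, had 4218 in the double knockout against 2206 in the control, 1.91-fold higher (log2 0.93, recentred 0.35). Adamts5, a main aggrecanase, had 3738 and 1961, 3178 and 1743, and 1599 and 794 in its 3 measured probe sets. All 3 were higher in the double knockout and within a narrow range of 1.82-fold to 2.01-fold.

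Adamts4, the other main aggrecanase, had 176 in the double knockout against 96.2 in the control (1.83-fold, recentred 0.29), and in a second probe set 105 and 37.8 (at least 1.99-fold). Adamts8 had 157 and 17.4, and since the control was below the floor it was at least 2.99-fold higher (recentred 0.99), from 1 probe set. Adamts9, which also serves secretion of proteins, had 606 and 385 in one probe set (log2 0.65) and read -0.05 and 0.28 in 2 others, so its direction depended on the probe set. Adamts15 had 200.3 and 199 (log2 0.01, recentred -0.58), and Adamts20 was below the floor.

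Outside that kind, Adamts16, known as a candidate gene for blood pressure in rats, had 569 in the double knockout against 257 in the control, 2.22-fold higher (log2 1.15, recentred 0.56), but its second probe set, with 113 and 83.9, was 1.35-fold higher (log2 0.43). Adamts6 had 93.5 and 152 (1.63-fold lower, recentred -1.29) and Adamts10 had 193 and 260.2 (1.35-fold lower, recentred -1.02). Both are related enzymes tied to fibrillin microfibrils, and each value rests on 1 measured probe set. Adamts3, an enzyme that trims procollagen, reached the floor in the double knockout alone (66.7 and 38.2). Adamts7 and Adamts12, which act on cartilage matrix, read 0.27 and 0.18.

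The ADAMTS-like proteins share domains with ADAMTS enzymes and lack the protease. Adamtsl4, which binds fibrillin, had 694 in the double knockout against 317 in the control, 2.19-fold higher (log2 1.13, recentred 0.54). Adamtsl5 had 191 and 137, and 139 and 84.2, with log2 differences of 0.47 and 0.72 (recentred -0.11 and 0.14). Adamtsl2 had 464 and 453 (log2 0.03, recentred -0.55). Of the 5 genes only Adamtsl4 was thus past 2-fold. Adamtsl1 gave -0.45 and 0.36 in 2 probe sets near the floor, and Adamtsl3 was at the floor. Where a member gene had several probe sets above the floor on both arrays, they gave 1 direction in 11 of 14 genes, the exceptions being Adam10, Adamts9 and Adamtsl1.

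Genes that act with these enzymes were read from lists drawn up by known function. Among activators, inhibitors and clearance factors of the enzymes, 5 of 17 measured genes were at least 2-fold higher and 1 lower, with a median of 0.70 (0.11 recentred). The highest were Pcsk6, a convertase that removes prodomains (3322 in the double knockout against 776 in the control, 4.28-fold), and Lcn2, a secreted partner of MMP9 (3359 and 920.3, 3.65-fold). Thbs2, a thrombospondin that takes part in MMP2 uptake, was 2.31-fold higher, and the remaining higher genes were Reck, a membrane-anchored MMP inhibitor, and Thbs1. Serpinf2, the plasmin inhibitor, was 2.54-fold lower (1332 and 3390.2). The furin gene, whose product cleaves the prodomain of MMP14, read 0.22.

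Partners of ADAM10 and ADAM17 had a median of 0.33 (-0.25 recentred), and 1 of 11 measured was at least 2-fold higher, Tspan17, a tetraspanin that binds ADAM10 (831 and 342, 2.43-fold). Tspan5, of the same kind, was 1.93-fold higher, and Sh3bp4 and Mad2l1 read 0.82 and 0.58, of which Sh3bp4 has an uncertain tie to these enzymes. Surface proteins shed by ADAM10 or ADAM17 had a median of 0.48 (-0.10 recentred), with 4 of 34 at least 2-fold higher: Vcam1 (3241 and 458), Havcr1 (2272 and 357), Cd44 (1855 and 337) and Mertk (5927 and 2773). Vcam1 is an adhesion molecule for leukocytes, Havcr1 a marker of injured tubules, Cd44 a receptor for hyaluronan and Mertk a receptor of phagocytes, and 0 of the 34 were at least 2-fold lower.

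Matrix substrates of MMPs and ADAMTS enzymes had 25 of 26 measured genes above 0, a median of 0.77 (0.19 recentred) and 8 of 26 at least 2-fold higher. The largest were Fn1 (fibronectin, 4428 in the double knockout against 968 in the control), Tnc (tenascin C, 2203 and 647), Comp (239.7 and 78.5) and Col1a1 (634 and 219). Versican (Vcan), a main ADAMTS substrate, reached the floor in the double knockout alone (105 and 42.3, at least 2.00-fold), and Acan, Bcan and Vwf were below it on both arrays. Fibroblast markers, of which 4 of 12 are also in this list (Col1a1, Col1a2, Col3a1 and Dcn), had 5 of 12 measured genes at least 2-fold higher and a median of 0.77, with summed signals of 14239 and 9096, and their part in the member values was not tested.

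Other zinc peptidases went both ways, with 4 of 10 measured genes above 0, 6 below 0 and a median of -0.12. Bmp1, which trims procollagen, was 2.68-fold higher (438 and 164), while Mep1a, a meprin of the proximal tubule brush border, was 2.11-fold lower (3908 and 8245). Anpep read -0.92 and Ece1, which makes endothelin, 0.80. Of the AP-1 and Ets factors, which are known to act on Mmp promoters, 11 of 12 measured were above 0 and 0 were past 2-fold, with a median of 0.34 (-0.25 recentred). Fosl2 was the largest at 0.98, followed by Elk3, Ets2 and Ets1 at 0.72, 0.69 and 0.65.

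**Figure D4:**
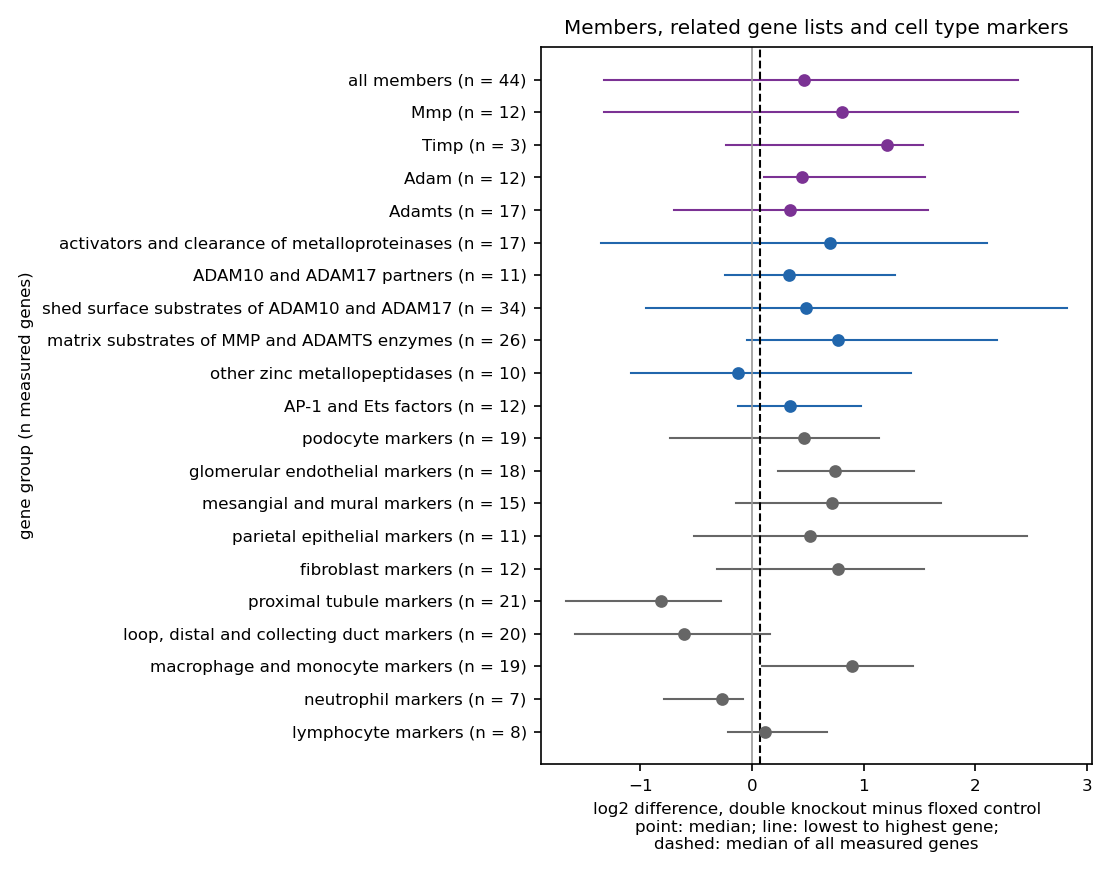
Median log2 difference (points) and the range from the lowest to the highest measured gene (lines) of the members and their families (purple), of gene lists that act with them (blue) and of cell type markers (grey), with a dashed line at the median of all measured genes. The medians of the Mmp genes (0.81) and Timp genes (1.21) lie beside marker medians of 0.47 for podocytes, 0.72 for mesangial cells, 0.74 for endothelium, 0.77 for fibroblasts and 0.90 for macrophages, while both tubule marker medians (-0.81 and -0.61) lie left of 0.

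How far each value depends on the processing differed between genes. Mmp2 was at least 2-fold higher under all 14 settings that gave it a value, between 1.70 and 2.38. Mmp14, Mmp17, Timp1, Timp2 and Adamtsl4 stayed past 2-fold under 13 of 14, the exception being recentring on the glomerular markers (0.70, 0.97, 0.94, 0.63 and 0.54). Adam12 stayed past it under 12 of 14, and Adamts16 under 11. In Adamts16 the probe set chosen decided the value, which was 0.43 with its other probe set.

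**Figure D5:**
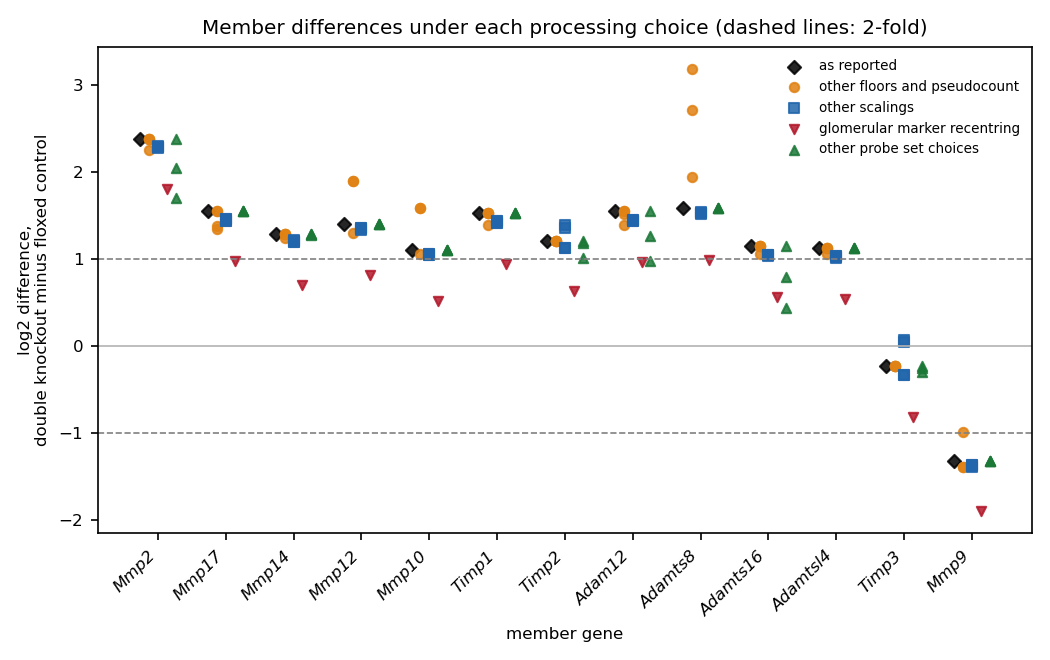
Log2 difference (y axis) of 13 member genes under each processing choice, with dashed lines at 2-fold and a separate symbol for the reported value, other floors, other scalings, recentring on glomerular markers and other probe set choices. After recentring all genes here except Mmp2 lie below the upper dashed line, where Timp3 and Mmp9 also lie as reported. Timp3 crosses 0 with other scalings, and Adamts8 spreads most because its control signal is below the floor.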

How the data were processed

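Glomeruli were isolated by graded sieving and biotin-labelled cRNA was hybridised to 1-colour arrays, per the labels' protocols. The authors deposited MAS5 signals, a linear intensity for every probe set, per the submitters' processing notes, which give no version; the build used is not given in the sources used here. The mean after trimming 2% from each end was 500.0 on both arrays, so each value is relative to the rest of that RNA. The number of arrays, 1 per group, limits the precision and allows no test. Genes come from GEO's platform annotation, and all 70 member gene identifiers were found in the RefSeq table of GRCm38.p6. Control probe sets (64) were left out, as were 5 probe sets shared by a member and another gene.

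A gene took its brightest probe set by mean log2 signal, without _x_at sets where another existed. Signals below the floor, the mean of the 40th percentiles of both arrays, were raised to it, and folds against a raised signal are lower bounds. Alternatives changed the floor, the scaling, the probe set, the fold rule and the rule for being measured. A log2 value counts as moved past 0.21, the robust SD between probe sets of 1 gene, a limit that the analysis plan did not name. It comes from the same 2 arrays, holds no variation between mice or preparations, and does not replace the missing replicates. The named genes were every measured Mmp and Timp gene, every measured Adam and Adamts gene that differed at least 1.5-fold in a probe set or was among the 8 brightest of its family, and up to 4 genes of each pathway list; others were chosen after their values were seen. Members and lists were chosen with earlier results of these data known. Role classes, gene pairs, the chromosome 9 grouping and 4 of the 5 promoter motifs (all but AP-1) were chosen after the values were seen. Planned protein motifs were not analysed here. Steps were run with Python 3.11.15, pandas 2.3.3 and statsmodels 0.14.6. They were also run on simulated data with planted changes, which checks the calculation and not the results above.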

Additional observations from a re-analysis of the deposited data

How the results depend on the processing

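The counts and medians were recomputed under each alternative, and 0 member differences reversed among those at least 2-fold. Of 450 recomputed values of 36 named members, 391 moved by no more than 0.21 on the log2 scale and 59 by more, 36 of the latter under recentring on glomerular markers. Recentring subtracts the same 0.58 from every gene, so it moves all 36 named members past 0.21 whatever their values. The count of 11 genes at least 2-fold higher became 24 with no floor, 20 with a 1.5-fold rule, and 1 with a 3-fold rule and after recentring. That of 19 probe sets became 44, 35, 2 and 2 in the same order. The shares of member genes were then 34.3%, 45.5%, 2.27% and 2.27%, against 9.10%, 13.7%, 0.549% and 0.549% of all genes. The gene count fell less elsewhere, to 8 of 37 with both arrays required and 8 of 23 with the floor at the 60th percentile. It was 10 of 44 when probe sets were averaged, and 9 of 44 when a gene took its middle probe set by difference. The 1 lower gene became 2 with no floor and with a 1.5-fold rule, 4 after recentring, and 0 with the floor at the 60th percentile, a pseudocount of 32, the 3-fold rule or both arrays required. The 1 lower probe set became 6, 2, 4 and 0 under the same settings. Signals without a floor include many below it, whose differences cannot be read. Median, 75th percentile, quantile and loess scaling kept the same 11 genes, while over all genes the share higher among those past 2-fold went from 55.1% to 38.6%, 38.6%, 44.9% and 44.8% (3.25% after recentring, which moves the median of all genes to -0.52). After recentring the medians were -0.11 for all members, 0.23 for Mmp, 0.63 for Timp, -0.14 for Adam and -0.24 for Adamts. With the floor at the 25th percentile they were 0.97 for Timp and 0.62 for Adamts, with the 60th 1.31 for Mmp and 0.65 for Adamts, with no floor 0.73 for Adamts, and with the pseudocount 0.58 for Mmp, 0.81 for Timp and 0.20 for Adam. Other floors change which genes are measured; the cause was otherwise not tested. No paired analysis was possible because each group has 1 array.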
